A study of Mus musculus with 36 samples.

Results

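The immediate early response genes described here were a list of 10 genes chosen by name from textbook knowledge of the response: Fos, Fosb, Fosl1, Jun, Junb, Egr1, Ier2, Ier3, Dusp1 and Myc, out of 49315 genes in the deposited tables. The rule uses no measured value, but the list was drawn up with earlier results of these data known. The genes were followed in C2C12, an established mouse skeletal myoblast line, kept proliferating on Thermanox plastic coverslips inside flight hardware for the International Space Station. Cells were exposed to nanoceria, cerium oxide nanoparticles studied as antioxidants, or left without them, and polyadenylated RNA was sequenced. There were 6 classes of 3 libraries, each library from its own experiment unit: in space without gravity and without nanoceria (class A), in space without gravity with nanoceria (B), in space with gravity without nanoceria (C), in space with gravity with nanoceria (D), on land without nanoceria (E) and on land with nanoceria (F). Nanoceria, coated with fetal bovine serum, stood at 100 µg/ml in a medium reservoir of the treated units. Cells of every class came from the same purchased line at low passage, were held at 37 °C in the incubator stage, and were rinsed in saline and fixed in RNAlater at the end, which in flight was 9 days after launch. The land cultures were a later repeat that followed the recorded time and temperature of the flight, so land and the separate run cannot be told apart.

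Immediate early genes are switched on within minutes of a stimulus such as serum, growth factors, stretch or stress, without new protein synthesis. MAP kinase signalling to SRF and its ETS-family partners, and to CREB, starts their transcription, and their unstable messenger RNAs, many with AU-rich elements, disappear soon after. FOS and JUN family proteins pair to form the transcription factor AP-1, EGR1 is a zinc finger activator, DUSP1 dephosphorylates MAP kinases and so closes the loop, and MYC drives growth. In skeletal myoblasts, JUN, FOS and MYC are known for keeping cells dividing and opposing differentiation.

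The promoters of 6 of the 10 genes were found in RefSeq windows of 250 bases before to 50 bases after the start site (GRCm38.p6). Those of Jun, Junb and Fos are shown because Jun and Junb carried the difference between space and land, and Fos was highest on land without nanoceria. Fos was not called by edgeR in any contrast. That of Dusp1 is shown because it is the feedback inhibitor of the pathway, which passed no test between space and land (-0.31 with gravity and 0.40 without). Each is printed 5′ to 3′ on the strand of its gene, at chr4:95052173-95052472 (minus) for Jun, chr8:84978699-84978998 (minus) for Junb, chr12:85473640-85473939 (plus) for Fos and chr17:26508423-26508722 (minus) for Dusp1. Capitals mark matches, on either strand, to the cyclic AMP response element TGACGTCA and its shorter form TGACG, the CCAAT box, TATAAA and the GC box GGGCGG.
Jun: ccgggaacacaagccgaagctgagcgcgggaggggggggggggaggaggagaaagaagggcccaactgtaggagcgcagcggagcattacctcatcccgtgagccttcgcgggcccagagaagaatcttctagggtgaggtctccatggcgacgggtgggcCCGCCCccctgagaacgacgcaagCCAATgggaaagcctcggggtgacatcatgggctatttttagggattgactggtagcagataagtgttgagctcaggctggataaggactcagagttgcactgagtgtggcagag
Junb: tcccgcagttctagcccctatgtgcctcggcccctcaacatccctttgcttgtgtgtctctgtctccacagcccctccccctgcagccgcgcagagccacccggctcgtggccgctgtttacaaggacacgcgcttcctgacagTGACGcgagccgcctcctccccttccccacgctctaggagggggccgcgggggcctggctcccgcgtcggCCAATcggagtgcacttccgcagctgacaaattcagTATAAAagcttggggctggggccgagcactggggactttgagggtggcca
Fos: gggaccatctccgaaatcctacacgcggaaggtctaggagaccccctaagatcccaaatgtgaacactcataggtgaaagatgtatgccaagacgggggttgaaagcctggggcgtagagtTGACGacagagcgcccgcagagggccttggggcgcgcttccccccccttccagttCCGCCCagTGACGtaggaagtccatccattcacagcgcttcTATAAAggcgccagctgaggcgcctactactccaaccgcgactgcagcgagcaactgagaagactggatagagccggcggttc
Dusp1: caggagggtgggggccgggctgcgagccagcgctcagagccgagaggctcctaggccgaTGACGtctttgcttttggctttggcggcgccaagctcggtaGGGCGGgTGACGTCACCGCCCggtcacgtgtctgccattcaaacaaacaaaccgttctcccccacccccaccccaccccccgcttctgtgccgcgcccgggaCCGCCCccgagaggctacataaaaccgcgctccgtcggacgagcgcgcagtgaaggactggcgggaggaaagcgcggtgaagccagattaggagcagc
The full element TGACGTCA, which reads the same on both strands and overlaps matches to TGACG, stood in the Dusp1 window, and 1.79% of all 32851 promoter windows held it. TGACG stood 2 times in the Fos window, in 1 place in that of Junb and in none of that of Jun, against 20.8% of all windows with a match. CCAAT was present in the Jun and Junb windows and in 37.4% of all windows. TATAAA was present in the Fos and Junb windows and in 13.6% of all windows. GGGCGG was present in the Jun, Fos and Dusp1 windows and in 35.7% of all. The AP-1 site TGANTCA and the CArG box, the site of SRF, were matched in 0 of the 6 windows, against 7.81% and 1.63% of all windows. These matches describe the letters only. Sites beyond the windows, variants of these letters and the promoters of Fosl1, Egr1, Ier2 and Myc were not searched.

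Libraries held 2986628 to 11378178 counts, except class D replicate 3 with 23858. In that library the 10 genes had 6 counts together and 1 count equals 11.9 CPM (the count scaled to its library's size, with TMM factors), against 0.0645 to 0.371 elsewhere. It stayed in the tests, while levels and shares of counts below leave it out unless stated. Leaving it out of the tests moved some log2 differences. In space with gravity against land, Ier3 went from -0.53 to -0.41 and Nf1 from 1.92 to 1.64. The 6 most abundant genes, led by Lars2 and Gm23935, took 54.3% to 75.7% of counts on land and 29.6% to 69.1% in space. Each of E replicate 3 and F replicate 3 was the library of its class that correlated least with the other 2. Of the 10 myoblast markers, Ncam1 (median 1656 CPM), Vim (481), Des (86.6), Myf5 (50.5) and Cdh2 (29.6) were the highest, and Itga7 had 7.05. Cdh15 (0.797), Pax7 (0.319) and Myod1 (0.158) had medians near 0, and Msc was at 0 in most libraries. The summed level of 10 differentiated muscle markers ran from 5.37 to 111 CPM on land and from 1.46 to 20.8 in space, so the ranges overlapped. The 6 leukocyte markers summed to 2.63 to 41.8 CPM on land and 5.52 to 32.9 in space, most of it Cd68 (median 11.2 CPM). Ptprc and Lyz2 reached at most 1.28 and 3.25 CPM, and Adgre1 and Itgam were at 0 in the 17 libraries. The part of these markers in the results was not tested.

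**Figure D1:**
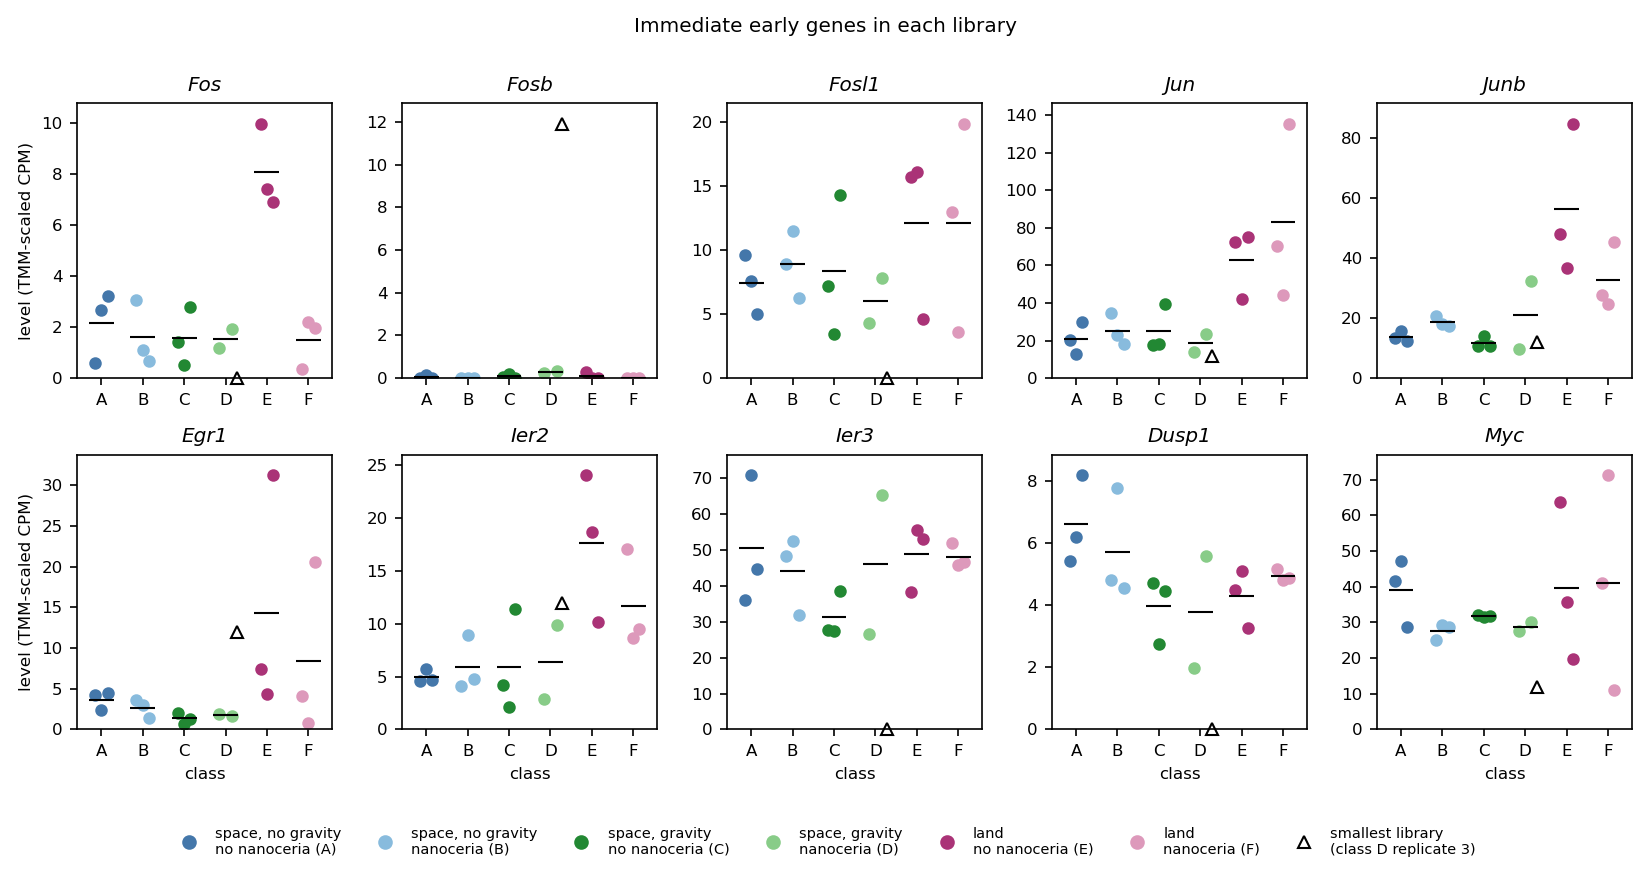
Level of each gene (TMM-scaled CPM, 1 point per library) by class A to F, with a bar at the class mean that leaves out the smallest library, which is drawn as an open triangle. Jun sits between 42.2 and 135 CPM on land and below 40 in space, and Fos is high only in class E, at 6.90 to 9.97 CPM.

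Of the 10 genes, 9 passed the filter on low counts. Fosb, a FOS family partner in AP-1, did not: it had 12 counts over all 18 libraries and at most 3 in any, so no level or difference could be read for it. To compare genes with each other, levels were divided by the deposited gene length. Ier3, a short-lived regulator of cell death, was the highest at 39.5 ± 11.4 CPM per kb (SD, n = 17). Myc (12.9 ± 5.45), Jun (12.7 ± 10.0) and Junb (11.3 ± 8.40) followed and lay within each other's spread. Ier2 (5.84 ± 3.99) and Fosl1 (5.47 ± 2.91) also did not separate. Dusp1 (1.84 ± 0.572), Egr1 (1.25 ± 1.79) and Fos (1.20 ± 1.16) were the lowest of the tested genes. At these levels Fos rested on 1 to 71 counts per library and Egr1 on 4 to 95, which limits the precision of both.

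Jun and Junb, the JUN family subunits of AP-1, were lower in space than on land, and Egr1 was lower in space with gravity. With both nanoceria states averaged, 3 of the 9 tested genes changed between space with gravity and land, and all 3 fell. Over all 11558 genes tested, 14% were called in that comparison: 6.74% fell and 7.22% rose. All 9 log2 fold changes were below 0, with a median of -1.18, against -0.04 over all genes, of which 51.6% were below 0. In space without gravity against land, 2 of the 9 fell and 0 rose, where 5.25% of all genes were called, 2.44% as lower and 2.81% as higher. There 8 of 9 fold changes were below 0, as were 51% of all genes, and the median was -0.90 against -0.02 over all genes. Both comparisons use the same land libraries. In RNA from whole cultures, fewer cells of a kind and less RNA per cell cannot be told apart.

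Jun, whose protein is the main transactivating partner of AP-1, had 72.3, 42.2 and 74.9 CPM on land without nanoceria and 70.3, 44.1 and 135 with nanoceria. Without gravity in space it had 20.1, 12.9 and 29.9 CPM without nanoceria and 34.6, 23.0 and 17.9 with. In space with gravity it had 17.4, 18.1 and 39.4 CPM without nanoceria, and 14.2 and 23.3 with nanoceria. Every land library was above every space library, although the gap between 42.2 and 39.4 CPM was narrow. The same separation in this direction was found for 1.12% of all genes tested. Jun fell by 1.79 on the log2 scale in space with gravity (SE 0.41, 3.45-fold lower, edgeR adjusted p = 0.0118) and by 1.66 in space without gravity (SE 0.39, adjusted p = 0.0262). Leaving out libraries in turn kept the call in 11 of 12 fits with gravity (0.0508 without D replicate 1), but in only 3 of 12 without gravity, where adjusted p reached 0.0796. Jun lies on chromosome 4, 95049034 to 95052222 (minus strand, GRCm38), has a single exon, and shares 232 of its 3189 exon bases with the antisense gene Junos, which had 102 counts in all against 3531 for Jun. Of the 229 tested protein-coding genes with a single exon (overlapping exons merged), 16.6% were called lower with gravity and 6.55% without. Of the 10201 with more, 6.5% and 2.45% were. The part of exon number in the call of Jun was not tested.

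Junb, a JUN family member that often restrains JUN, had 48.2, 36.6 and 84.8 CPM on land without nanoceria and 27.8, 24.6 and 45.2 with nanoceria. Libraries in space without gravity had 13.2, 15.6 and 12.3 CPM without nanoceria and 20.7, 18.2 and 17.4 with. In space with gravity it had 10.6, 14.0 and 10.9 CPM without nanoceria, and 9.66 and 32.4 with nanoceria. All 6 libraries without gravity lay below all 6 of land, as they did for 1.68% of all genes, while D replicate 2 at 32.4 CPM reached into the land range. Junb fell by 1.50 in space with gravity (SE 0.37, adjusted p = 0.0162) and by 1.42 in space without gravity (SE 0.36, adjusted p = 0.0333). Its call was lost without D replicate 1 in the comparison with gravity (adjusted p = 0.0646) and held in 3 of 12 such fits in the one without. With gravity it was also lost with no filter (adjusted p = 0.0600), with only the compared groups in the fit (0.0507) and without E and F replicates 3 together (-1.11, 0.0603). Junb lies at 84974484 to 84978718 on chromosome 8, and 173 of its 2301 exon bases lie opposite exons of Prdx2, whose 3222 counts exceed the 2322 of Junb. No source used here states that the counting used strand, so reads from that overlap cannot be assigned.

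Egr1, an early growth response activator on chromosome 18, had 7.44, 4.35 and 31.2 CPM on land without nanoceria and 4.07, 0.801 and 20.5 with nanoceria. Space without gravity gave 4.21, 2.35 and 4.46 CPM without nanoceria and 3.64, 2.97 and 1.35 with. In space with gravity it had 2.06, 0.688 and 1.32 CPM without nanoceria, and 1.90 and 1.59 with. Land and space overlapped, since F replicate 2 was near the lowest value of all, and the land mean rested on E and F replicates 3. Egr1 fell by 2.66 in space with gravity (SE 0.74, adjusted p = 0.0262), and the difference was -1.80 in space without gravity (SE 0.66, adjusted p = 0.102). Without E replicate 3 and F replicate 3 together the differences were -1.08 (adjusted p = 0.230) and -0.24 (adjusted p = 0.827), so the call with gravity was lost. With libraries left out 1 at a time it held in 7 of 12 fits, with differences from -2.89 to -1.72, and was lost without C replicate 2, D replicate 1, D replicate 2, E replicate 3 or F replicate 3. With limma voom and quality weights Egr1 was -1.24 with gravity (adjusted p = 0.169).

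Ier2, a small nuclear protein induced with the others, had 24.0, 18.7 and 10.2 CPM on land without nanoceria and 17, 8.61 and 9.44 with. In space it ranged from 2.15 to 11.4 CPM with a mean of 5.74 ± 2.98 (SD, n = 11). The ranges overlapped between 8.61 and 11.4 CPM. The difference was -1.18 with gravity (SE 0.47, adjusted p = 0.0963) and -1.41 without gravity (SE 0.45, adjusted p = 0.0716), neither past the threshold of 0.05. With DESeq2's test it passed in both, at adjusted p = 0.0229 and 0.0159. It also passed in both with DESeq2 size factors and with limma voom and quality weights. With DESeq2 size factors the median of all genes was itself -0.39 with gravity and -0.28 without. With DESeq2's test it was -0.37 and -0.28. Ier2 passed in neither with no filter, only the compared groups, or the abundant genes removed. Nor did it with the abundant-gene share as a covariate, with GC and length offsets, or without E and F replicates 3.

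Fos, the founding subunit of AP-1, had 9.97, 7.41 and 6.90 CPM on land without nanoceria. On land with nanoceria it had 0.370, 2.20 and 1.95 CPM. In space it ranged from 0.516 to 3.21 CPM with a mean of 1.74 ± 1.03 (SD, n = 11). The 3 land libraries without nanoceria were above all other libraries, and those with nanoceria reached no higher than the space range. The share of all genes with this separation from all other libraries was not counted. Land libraries with nanoceria all lay below those without it for 6.41% of all genes. With nanoceria on land the log2 difference was -2.37 (SE 0.81, unadjusted p = 0.00889, edgeR adjusted p = 0.339), so it did not pass the threshold. It was -0.39 in space without gravity and -0.06 in space with gravity. The joint edgeR test of whether the nanoceria difference varied between regimes gave an unadjusted p = 0.118 (adjusted p = 0.861). Averaged over nanoceria, Fos was -1.22 in space with gravity (adjusted p = 0.163) and -0.90 in space without gravity (adjusted p = 0.331).

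The remaining 4 genes did not pass the test between space and land. Fosl1, the FOS family member FRA-1, ranged from 3.61 to 19.9 CPM on land and from 3.44 to 14.3 in space, with differences of -0.84 and -0.59 with and without gravity. Ier3 ranged from 38.2 to 55.5 CPM on land and from 26.7 to 70.8 in space, with differences of -0.53 and -0.04. Myc spanned 11.1 to 71.3 CPM on land, where E and F replicates 3 were the lowest at 19.7 and 11.1, and 25.0 to 47.1 in space, with differences of -0.50 and -0.30. Those 2 libraries were at once the highest of land for Egr1 and the lowest for Myc. Dusp1, the MAP kinase phosphatase, had 3.29 to 5.18 CPM on land and 1.98 to 8.20 in space. Its differences were -0.31 with gravity and 0.40 without, and the 95% interval of the latter ran from -0.37 to 1.18.

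**Figure D2:**
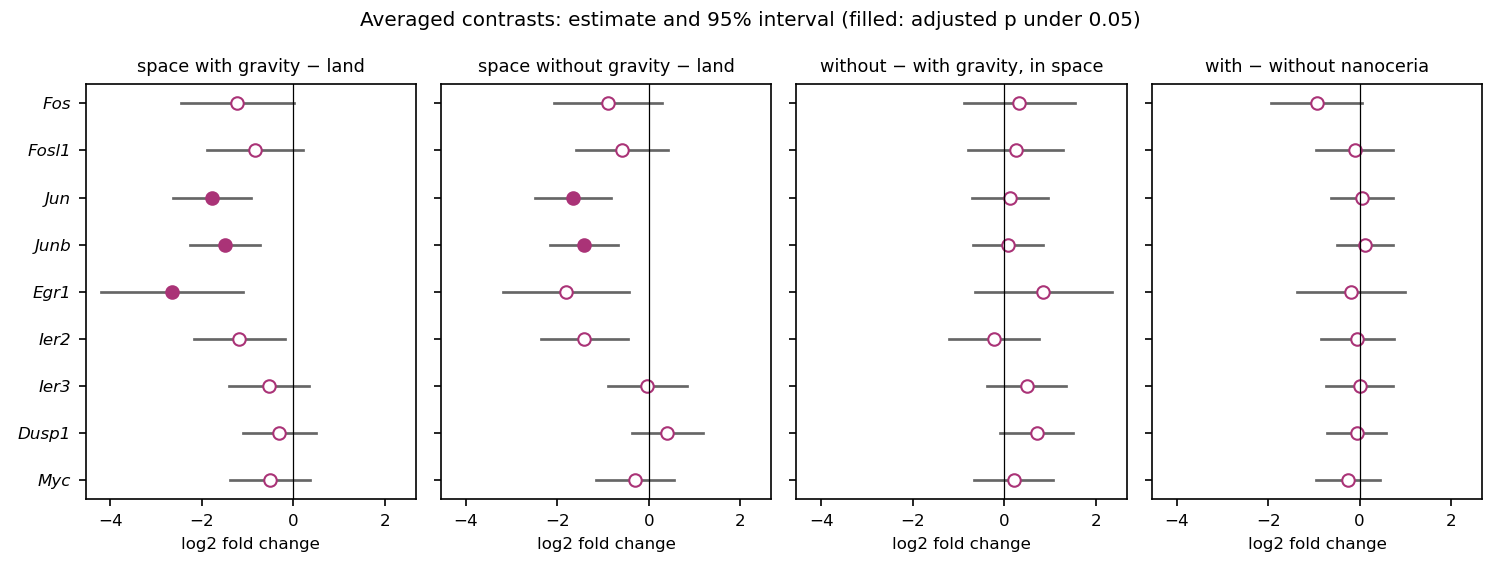
Log2 fold change of the 9 tested genes in each averaged contrast, as a point with its 95% interval, filled where the edgeR adjusted p was under 0.05. Jun and Junb are filled in both comparisons with land, Egr1 in that with gravity, and no gene in the gravity or nanoceria contrasts.

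Within each nanoceria state the comparison with land rests on 3 libraries a side, and no member passed the adjusted threshold in edgeR. With gravity, 0% of all genes passed without nanoceria and 0.00865% with, and without gravity 0% and 0.0433%. Without nanoceria, 5 of 9 had an unadjusted p under 0.05 in space with gravity against land (21.5% of all genes did), with Junb at -2.25 (adjusted p = 0.0664), Egr1 at -3.36, Fos at -2.38, Ier2 at -1.60 and Jun at -1.34. With nanoceria, 1 of 9 did (20.5% of all genes), namely Jun at -2.24 (adjusted p = 0.0845). The counts in space without gravity were 5 of 9 without nanoceria (13% of all genes) and 1 of 9, again Jun, with nanoceria (19.2%). Jun was thus below land in both nanoceria states, with differences between -1.34 and -2.24. Whether the nanoceria difference varied between regimes was tested jointly and passed in edgeR for 0 of 9 genes and 0% of all (0 of 9 also at an unadjusted p under 0.05, smallest unadjusted p = 0.106, for Junb), so the contrast between the 2 states is not shown to be more than spread.

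GC content and gene length moved with the same comparison. In space with gravity against land, genes that fell had a median GC content of 54.5% and length of 2423 bases, genes that rose 46.3% and 4827 bases, and genes not called 49.1% and 4133 bases. The immediate early genes are rich in GC: of the tested 9, Junb is at 62.6% (98.9th percentile of tested genes), Ier2 at 60.9%, Fosl1 at 58.5%, Egr1 at 57.3% and Jun at 55.5%, and Fos is the lowest at 51.9% (64.4th percentile). The median log2 fold change of all tested genes was -0.54 among the 1417 genes of 55% to 58% GC, where Jun and Egr1 lie, -0.80 among the 704 genes of 58% to 61%, where Ier2 lies, and -1.09 among the 208 of 61% to 64%, where Junb lies. When the trend with GC content and length was removed within each library, an alternative added after the data were seen, Jun was -1.38 (adjusted p = 0.0377), Junb -0.59 (0.298), Egr1 -2.25 (0.0668) and Ier2 -0.27 (0.709). The median of the 9 genes went from -1.18 to -0.27. After the same step 0 of 9 passed in space without gravity, with Jun at -1.24 (0.0794) and Junb at -0.54 (0.386). Jun and Egr1 therefore lay below the median of genes of their own GC content, though Egr1 was not called after the trend was removed. Junb and Ier2 lay nearer to theirs.

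**Figure D3:**
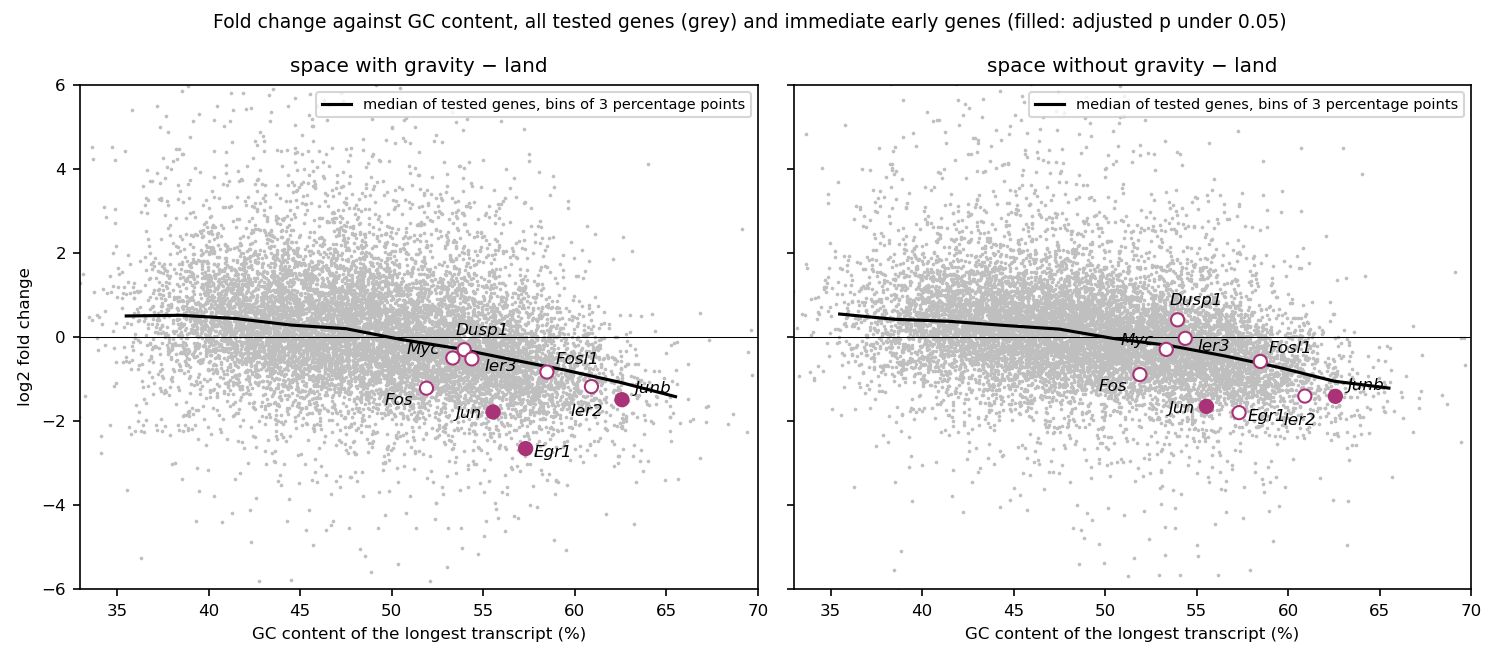
Log2 fold change against GC content of the longest transcript (%), for all tested genes (grey, axis ended at 6 in both directions, beyond which 64 and 42 genes lie), with the median in bins of 3 percentage points (line) and the 9 immediate early genes (circles, filled where adjusted p was under 0.05). The median falls with GC content in both comparisons, and Jun and Egr1 lie below the line while Fosl1 and Junb lie closer to it.

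**Figure D4:**
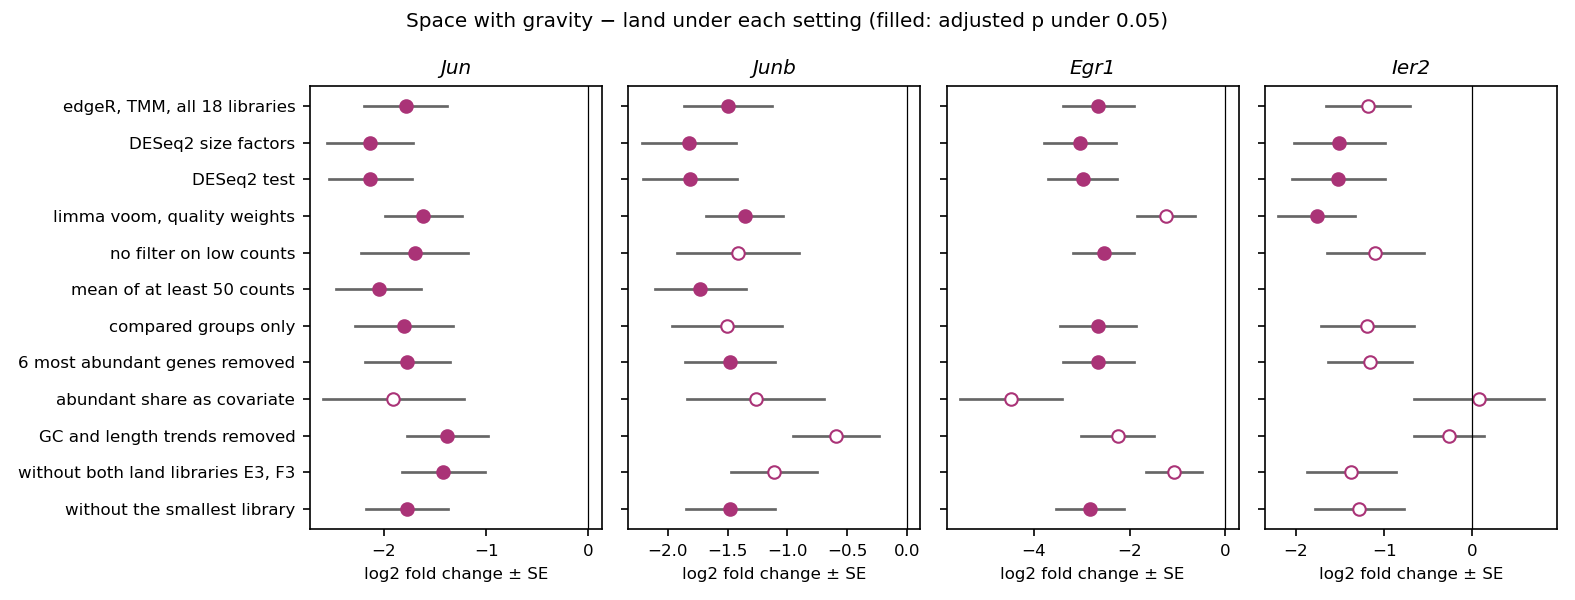
Log2 fold change ± SE of Jun, Junb, Egr1 and Ier2 in space with gravity against land under each setting, filled where adjusted p was under 0.05. Jun is filled in all settings shown except the one with the abundant-gene share as a covariate, and Ier2 crosses 0 there.

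The share of counts in the 6 most abundant genes also moved with the comparison, with medians of 66.9% on land and 49.5% in space. With that share as a covariate, 0 of 9 genes passed in either comparison, at -1.91 for Jun (adjusted p = 0.299), -1.26 for Junb (0.421) and -4.48 for Egr1 (0.148), and 0.08 for Ier2. In the same fit 1 gene of 11558 passed with gravity and 2 without. The SE of Jun was 0.69 in that fit and 0.41 without the covariate. The mitochondrial share of the other counts moved with the comparison as well, with a median of 1.02% on land (0.179% to 1.59%, the highest in E and F replicates 3) and 0.399% in space (0.110% to 0.755%). Its part in the results was not tested.

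Withdrawal of gravity in space changed 0 of 9 genes, averaged over nanoceria, as it did 0% of all genes tested in edgeR. At an unadjusted p under 0.05 the count was 0 of 9 as well (676 genes, 5.85% of all), and DESeq2 called 0 of 9 and 11 genes in all. Dusp1 had the smallest p, with 5.41, 6.21 and 8.20 CPM in class A, 4.80, 7.80 and 4.57 in B, 4.71, 2.75 and 4.45 in C, and 1.98 and 5.58 in D. It was 0.71 higher on the log2 scale without gravity (SE 0.38, unadjusted p = 0.0793, adjusted p = 0.902), and the ranges overlapped. Egr1 was 0.85 (SE 0.71), and Jun and Junb were 0.13 (95% interval -0.70 to 0.96) and 0.08 (-0.68 to 0.84). Differences of this size in either direction therefore could not be told from 0 here.

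Nanoceria, averaged over the 3 regimes, also changed 0 of 9 genes in edgeR, with 0 at an unadjusted p under 0.05, and 0% of all genes were called (756 genes, 6.54%, at an unadjusted p under 0.05). DESeq2 called 0 of 9 genes and 1 gene in all. Fos had the largest difference, -0.94 (SE 0.47, unadjusted p = 0.0614, adjusted p = 0.761). The other 8 lay between -0.25 for Myc and 0.13 for Junb. For Jun the estimate was 0.06 with a 95% interval from -0.62 to 0.73, and for Dusp1 -0.06 with an interval from -0.71 to 0.58. The 3 Junb values with nanoceria in space without gravity were above the 3 without, at 17.4 to 20.7 against 12.3 to 15.6 CPM, a separation in that direction found for 3.4% of all genes. The log2 difference there was 0.45 (SE 0.50, adjusted p = 1).

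Among 48 tested genes of a list of other immediate early genes, 2 rose and 5 fell in space with gravity against land, near the 14% called over all genes. The median log2 fold change was -0.34, against -0.04 over all genes. Nfkbia, the NF-kappaB inhibitor that NF-kappaB itself induces, had 44.9 ± 21.7 CPM on land (SD, n = 6) and 7.90 ± 3.42 in space with gravity (n = 5), and it fell by 2.54 (SE 0.46, adjusted p = 0.00565). Jund, the third JUN family gene, went from 78.0 ± 39.3 to 19.1 ± 3.54 CPM and fell by 2.04 (SE 0.41, adjusted p = 0.00813). Rhob, Cebpb and Btg1 were the other 3 that fell. Atf3, a stress-induced repressor that binds with JUN, rose from 23.8 ± 17.3 to 99.2 ± 14.0 CPM (log2 fold change 1.89, SE 0.62, adjusted p = 0.0492), and Mafg rose by 2.14 (SE 0.58, adjusted p = 0.0234). Without gravity, where 5.25% of all genes were called, 0 rose and 5 fell: Rhob, a serum-induced GTPase, by 2.47 (SE 0.46, adjusted p = 0.0111), Nfkbia by 1.96 (SE 0.44, adjusted p = 0.0216), and Jund, Cebpb and Gadd45g. After the removal of the GC and length trend Jund was -0.55 (adjusted p = 0.261) with gravity, Nfkbia -2.22 (0.00826) and Atf3 2.17 (0.0343). The call of Atf3 held in only 2 of 12 fits with 1 library left out and was lost with DESeq2 size factors and with voom, while those of Nfkbia and Jund with gravity held in 12 of 12.

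Genes that signal to the immediate early genes are read against the same shares, 14% of all genes called with gravity and 5.25% without. Of 35 tested kinases, SRF and SRF partners, Braf and Nras, both of the pathway from RAS to ERK, rose in space with gravity and 0 fell. Braf had 41.5 ± 51.9 CPM on land and 419 ± 282 in space with gravity (log2 fold change 3.47, SE 0.74, adjusted p = 0.00956). The call of Nras held in only 2 of 12 fits with 1 library left out and was lost with DESeq2 size factors, voom, only the compared groups, the GC and length offsets, and without E and F replicates 3. Rps6ka5, the MAP kinase-activated kinase MSK1, and Braf were the 2 that rose in space without gravity. Rps6ka5 rose from 0.344 ± 0.373 to 7.53 ± 6.50 CPM (log2 fold change 4.35, SE 0.98, adjusted p = 0.0231), a call that held in 6 of 12 such fits, as that of Braf did in 4 of 12. Both calls without gravity were lost without E and F replicates 3. That of Rps6ka5 was also lost with voom, and that of Braf with the GC and length offsets. Of 18 MAP kinase phosphatases and feedback inhibitors, 1 rose with gravity, the RAS inhibitor Nf1 (1.92, SE 0.48, adjusted p = 0.0171), and 0 fell. Without gravity 0 of 18 passed in edgeR, where 1 of 18 had an unadjusted p under 0.05 (24.7% of all genes did), Dusp8 at 1.95 (adjusted p = 0.133). Of 18 decay factors for AU-rich messages, Xrn1, the 5′ to 3′ exonuclease, rose in both comparisons (2.39 and 2.56, adjusted p = 0.0279 and 0.0383, held in 6 and 3 of 12 such fits), and 0 fell. Both calls of Xrn1 were lost with the GC and length offsets (edgeR adjusted p = 0.0610 and 0.0826). The call without gravity was also lost with only the compared groups.

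Of 20 tested AP-1 target genes, 1 rose and 2 fell in space with gravity, near the 14% called over all genes, with a median of -0.29. Plaur, the urokinase receptor, rose from 3.93 ± 2.11 on land to 21.8 ± 11.5 CPM (log2 fold change 2.42, SE 0.47, adjusted p = 0.00709). The secreted proteins Spp1 and Timp1 fell by 2.46 (SE 0.69, adjusted p = 0.0274) and by 1.57 (SE 0.48, adjusted p = 0.0376). Their calls held in 6 and 5 of 12 fits with 1 library left out, and Spp1 was -1.36 without F replicate 3. Both were lost without E and F replicates 3 together, that of Spp1 also with voom, and that of Timp1 with only the compared groups and with the GC and length offsets. In space without gravity 0 of 20 passed in edgeR, and 5 had an unadjusted p under 0.05, as 24.7% of all genes did. Of 30 MYC target genes, 2 rose with gravity, Polr1b (1.64) and Wdr43 (1.78), and 0 without. There 6 had an unadjusted p under 0.05, again beside 24.7% of all genes. Of 16 MYC network partners, Trrap, Mxi1 and Mycl rose and Max, the obligate partner of MYC, fell in space with gravity. Trrap, a cofactor that MYC recruits, rose by 3.00 (SE 0.54, adjusted p = 0.00558), and Max fell by 1.32 (SE 0.35, adjusted p = 0.0222) from 9.89 ± 1.95 to 4.13 ± 0.988 CPM. Trrap and Mycl rose in space without gravity, by 2.82 (adjusted p = 0.0127) and 3.49 (adjusted p = 0.0349). Mycl was near the floor, at 0.197 ± 0.393 CPM on land (SD, n = 6, median 0) and 2.76 ± 2.96 in space without gravity (n = 6). Its fold change thus rests on almost no counts on land. The call of Mycl held in 5 of 12 fits with 1 library left out, with differences from 3.10 to 5.67 (without E replicate 1), and was lost with voom, only the compared groups, and without E and F replicates 3. That of Max with gravity held in 7 of 12, that of Wdr43 in 7 of 12 and that of Polr1b in 9 of 12. The call of Max was lost with no filter and with only the compared groups. Wdr43 lost its call with the GC and length offsets and without E and F replicates 3. Polr1b lost its call with DESeq2 size factors, with the DESeq2 test and with no filter. In all 7 lists 0 of 185 tested entries (Zfp36 stands in 2 lists) passed in edgeR for the nanoceria or the gravity contrast. An unadjusted p under 0.05 was found for 10 entries in each, beside 6.54% and 5.85% of all genes. The smallest p among the list entries belonged to Polr1b, which is a subunit of RNA polymerase I, at -2.34 without gravity (SE 0.44, unadjusted p = 4.87e-05, adjusted p = 0.401). All 23 calls of list genes named by rule in the land comparisons were lost with the abundant-gene share as a covariate, and 7 were lost after removal of the GC and length trend.

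Over the 17 libraries other than the smallest, the 9 tested genes did not follow 1 course. Jun and Junb correlated at r = 0.76, Junb and Egr1 at 0.70, and Jun with Egr1 and Ier2 at 0.69 each. Myc was at -0.49 with Egr1 and -0.25 with Jun, and Dusp1 was at 0.06 with Jun and 0.58 with Ier3. Among 6134 candidate genes, those most like Jun in log2 level were Calm3 (r = 0.93) and Rhob (0.86), and those most like Junb were Pkig (0.91) and P3h4 (0.89). Clic1 (0.82) and Mpc2 (0.81) were most like Fos, Cryab (0.78) and Elovl1 (0.77) most like Fosl1, and Acadm and Copz2 (both 0.89) most like Egr1. C230062I16Rik (0.91) and Cox4i1 (0.90) were most like Ier2, and Tubb6 (0.89) and Mrpl33 (0.84) most like Ier3. Anxa2 (0.77) and Rps9 (0.75) were most like Dusp1, and Prpsap1 (0.90) and Stbd1 (0.89) most like Myc. These correlations share libraries, depth and the split between space and land, and they are given as a description with no test.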

How the data were processed

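Polyadenylated RNA of C2C12 cells was sequenced after NEBNext Ultra library preparation, per the labels' protocols. The authors deposited raw counts of reads per gene for 18 libraries, 3 in each of 6 classes. The submitters' processing notes name CASAVA, Trimmomatic 0.36.29, STAR, Subread and featureCounts, and the build GRCm38.p6. Annotation version and strand setting are not given in the sources used here. The 18 small RNA samples were not analysed here.

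Counts were tested in R 4.3.3 with edgeR 4.0.16: robust quasi-likelihood fit of class means over all 18 libraries, TMM scaling, filterByExpr (11558 of 49315 genes), Benjamini-Hochberg adjustment over all genes tested and a threshold of 0.05. Contrasts were 4 averaged, 9 pairwise and 2 interaction tests. Replicates are separate experiment units of 1 cell line. Levels are TMM-scaled CPM. GC content is that of the longest annotated transcript, and the fit was tested on simulated data. Alternatives used DESeq2 1.42.0, limma 3.58.1, other filters, scalings, library subsets and a GC and length offset (loess span 0.3).

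The 10 genes and the 7 gene lists were chosen with earlier results of these data known. Named genes were all 10, plus the 2 list genes per direction with the smallest p among those called (or the 2 smallest p where none was), and the 2 genes most correlated with each tested member, among genes whose average log2 CPM was 3 or more. Names outside that rule were chosen after their values were seen.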

Additional observations from a re-analysis of the deposited data

How the results depend on the processing

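No paired analysis was possible because replicate numbers follow accession order and the labels pair no libraries between classes. The number of immediate early genes called in space with gravity against land, 3 in the reported fit, was 0 with the share of the 6 most abundant genes as a covariate, 1 with GC and length offsets, 1 without E3 and F3, and 0 to 4 when 1 library was left out (0 without D replicate 1). In space without gravity it was 2, and 4 with the DESeq2 test, 0 with the covariate, 0 with the offsets, 0 without E3 and F3, and 0 to 3 with 1 library left out, 0 without any 1 of A1, A3, B1, B2, B3, E1, E2 or F3. Within a nanoceria state the edgeR counts were 0: space with gravity without nanoceria gave 5 with the DESeq2 test and with voom, and 1 with DESeq2 size factors, no filter, a mean of at least 50 counts or only the compared groups. Space with gravity with nanoceria gave 1 with the DESeq2 test and with the mean of at least 50 counts. Space without gravity gave 1 with the DESeq2 test in either nanoceria state, and 1 with voom without nanoceria. The share of all genes called was not counted in these alternative fits within a nanoceria state. Those member counts therefore cannot be set against other genes. For these counts the cause was not tested, except that leaving out libraries leaves fewer samples. Counts of 0 for nanoceria and gravity held in every setting run.

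Over all genes, the DESeq2 test called 1 gene for nanoceria, 11 for gravity, 2691 in space with gravity (1613 reported) and 1524 without (607 reported). With no filter the counts were 214 for nanoceria, 229 for gravity and 1466 in space without gravity. With only the compared groups they were 1072 and 387 in the 2 land comparisons, with the covariate 1 and 2, and in space without gravity 989 with voom and 296 with the offsets. With 1 library left out they ran from 459 (without D replicate 1) to 1614 with gravity and from 82 (without E replicate 1) to 703 without. DESeq2 size factors moved the median of all genes from -0.04 to -0.39 with gravity and from -0.02 to -0.28 without, and the calls of Jun and Junb held in both.

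No called member reversed, but differences that had not passed did, some of them not near 0. With the covariate, space with gravity gave 0.54 for Fosl1 (reported -0.84), 0.076 for Ier2 (reported -1.18), 0.49 for Ier3 (reported -0.53), 0.45 for Dusp1 and 0.042 for Myc, space without gravity 0.13 for Fosl1 and 0.41 for Ier3, the gravity contrast -0.41 for Fosl1, -0.048 for Junb, -0.080 for Ier3, -0.10 for Myc and 0.37 for Cnot1 (reported -0.57), and nanoceria 0.031 for Egr1. With the offsets, nanoceria gave -0.12 for Jun and -0.20 for Junb, and space without gravity 0.12 for Fosl1 and 0.28 for Ier3. Without E3 and F3, nanoceria gave -0.065 for Jun and 0.049 for Ier3. For Ier3 nanoceria gave 0.0073 with DESeq2 size factors, 0.030 with the DESeq2 test, 0.0045 with the mean of at least 50 counts and 0.016 with the abundant genes removed, and space without gravity 0.015 with no filter. Voom gave 0.20 for Ier2 in the gravity contrast.

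With 1 library left out, the nanoceria difference ran from -0.36 to 0.079 for Dusp1, -0.80 to 0.24 for Egr1, -0.28 to 0.11 for Fosl1, -0.32 to 0.25 for Ier2, -0.30 to 0.14 for Ier3, -0.12 to 0.22 for Jun and -0.19 to 0.27 for Junb. The gravity difference ran from -0.15 to 0.63 for Fos, -0.52 to 0.20 for Ier2, -0.054 to 0.37 for Jun and -0.12 to 0.54 for Junb. In space without gravity it ran from -0.17 to 0.073 for Ier3 and from -0.51 to 0.044 for Myc.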
